A study of Mus musculus with 12 samples.

Results

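The transcription factor Nrf2, encoded by Nfe2l2, and 6 of its known target genes, Gclc, Gclm, Nqo1, Txnrd1, Srxn1 and Gsr, were followed in hepatocytes of female mice across lobule zone and feeding state. The 7 genes were given as a list and matched by symbol to the Ensembl identifiers of the deposited count table. All 7 were among its 28030 genes, and all 7 were among the 12086 that passed the filter on low counts. The libraries were made from total RNA of hepatocytes of 12-week-old wild-type (WT) females on normal chow (lab diet #5053). Each of the 4 groups held 3 libraries that the labels call biological replicates: fed pericentral (fed PC), fed periportal (fed PP), fasted pericentral (fasted PC) and fasted periportal (fasted PP) hepatocytes. All mice were trained for 3 days with food withheld for 16 h overnight and given for 8 h by day, and received 20% sucrose in the drinking water with the food on the day of the experiment. Livers of the fed groups were taken 4 h into feeding, and those of the fasted groups at that clock time a day later, 24 h after food and sucrose were withdrawn. PC cells surround the central vein and PP cells the portal tract, and the labels name digitonin, the detergent that is used to lyse 1 zone before the other is collected. Lysis of 1 zone leaves hepatocytes of the other, and the labels do not state whether any PC library shares a mouse with a PP library. In bulk RNA, fewer expressing cells and less RNA per cell cannot be told apart.

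In unstressed cells Nrf2 protein is bound by Keap1, which hands it to a Cul3 ubiquitin ligase for degradation. Oxidants and electrophiles modify Keap1, and the Nrf2 that is then spared pairs with small Maf proteins on antioxidant response elements. Because this control acts on the protein, the mRNA of Nfe2l2 need not follow its activity, whereas the mRNAs of its targets are widely used as a readout. In liver, the targets make glutathione (Gclc, Gclm), reduce quinones (Nqo1) and keep thioredoxin, peroxiredoxins and glutathione reduced (Txnrd1, Srxn1, Gsr).

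The promoters of 2 members, chosen from these same results, are printed. Srxn1 was the only member called in any comparison, and Gclm was the member that varied least over the 12 libraries. Sequences are the 250 bases before the start of transcription, from RefSeq on GRCm38.p6, 5′ to 3′ on the gene's strand. They come from chr2:152105274-152105523 (+) for Srxn1 and chr3:122245307-122245556 (+) for Gclm. Capitals mark matches on either strand to the core of the antioxidant response element, spelled here as TGACNNNGC or TGAGNNNGC.
Srxn1: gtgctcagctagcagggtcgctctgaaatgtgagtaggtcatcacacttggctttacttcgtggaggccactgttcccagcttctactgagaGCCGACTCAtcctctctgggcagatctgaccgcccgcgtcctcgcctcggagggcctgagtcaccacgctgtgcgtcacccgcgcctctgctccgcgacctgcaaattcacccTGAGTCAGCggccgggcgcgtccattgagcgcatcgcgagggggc
Gclm: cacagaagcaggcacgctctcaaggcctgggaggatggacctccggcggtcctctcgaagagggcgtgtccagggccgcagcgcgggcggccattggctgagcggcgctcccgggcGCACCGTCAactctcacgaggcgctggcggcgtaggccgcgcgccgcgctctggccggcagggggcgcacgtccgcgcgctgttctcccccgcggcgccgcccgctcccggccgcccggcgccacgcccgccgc

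The Srxn1 window held 2 matches, at 158 to 150 and at 45 to 37 bases before the start. The nearer one, TGAGTCAGC, also contains the AP-1 motif TGAGTCA, so the letters alone do not tell these motifs apart. The Gclm window held 1 match on the opposite strand, at 134 to 126 bases before the start. Of 32851 promoter windows of this length, 23% held at least 1 match, and 3.18% held 2 or more. RefSeq windows were found for 5 of the 7 members. Nfe2l2 had 1 match, Nqo1 had none in its window, and 1 of 3 Txnrd1 windows had a match.

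On GRCm38, the build of the GENCODE M21 annotation, Nfe2l2 lies on chromosome 2 from 75675513 to 75704641 and Srxn1 on chromosome 2 from 152105516 to 152111376. Gclc lies on chromosome 9 from 77754535 to 77794485, Gclm on chromosome 3 from 122245557 to 122270732, and Txnrd1 on chromosome 10 from 82833951 to 82897712. Nqo1 lies on chromosome 8 from 107388225 to 107403206 and Gsr on the same chromosome from 33652523 to 33698163. All 7 are protein-coding. Only the exons of Gclm overlap those of other annotated genes, Gm6061 on the same strand, which had at most 19 counts in a library, and Gm17494 on the opposite strand, which was not analysed here. The library kit does not mark strand.

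Libraries held 16245846 to 27449412 estimated counts. Within each feeding state, markers of the zones followed the labels. The 10 pericentral markers summed to 13670 to 24440 CPM in PC libraries and 373.4 to 1996 CPM in PP libraries. CPM are counts scaled to a common library size, after normalisation by trimmed means of M values. The 10 periportal markers summed to 8962 to 11190 CPM in fed PP and 2962 to 3632 CPM in fed PC libraries. After fasting they summed to 16200 to 22250 CPM in PP and 7717 to 9498 CPM in PC libraries. The fasted PC range overlapped that of fed PP, and 1 marker that rose with fasting, Pck1, held 4382, 4672 and 4516 CPM of it. Pck1 stood at 258.1, 80.5 and 45.1 CPM in fed PC and at 1271, 791 and 331.6 CPM in fed PP libraries. Of the fasted PC libraries, replicate 1 stood apart: Glul, a pericentral gene, was at 172.0 CPM there against 3639 and 2353 CPM in replicates 2 and 3. Periportal genes were raised there, such as Hal (578.9 CPM against 69.9 and 108.6) and Gls2 (385.6 against 65.4 and 99.7). Of the periportal markers, Cdh1 and Pck1 were not raised there beside replicates 2 and 3, and of the pericentral markers Lgr5 was not lowest there. Whether this library held periportal cells was not tested. Markers of other liver cells were low beside the 77830 to 158200 CPM of 5 hepatocyte markers. The 6 cholangiocyte markers summed to 13.6 to 27.9 CPM in PC and 33.6 to 47.4 CPM in PP libraries, and their part in the zone comparisons was not tested. There were 7 Kupffer cell markers, at no more than 9.72 CPM in sum in any library. Genes were called with edgeR's quasi-likelihood test at a Benjamini-Hochberg adjusted p under 0.05 over all 12086 genes, with levels given as mean ± SD, n = 3.

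**Figure D1:**
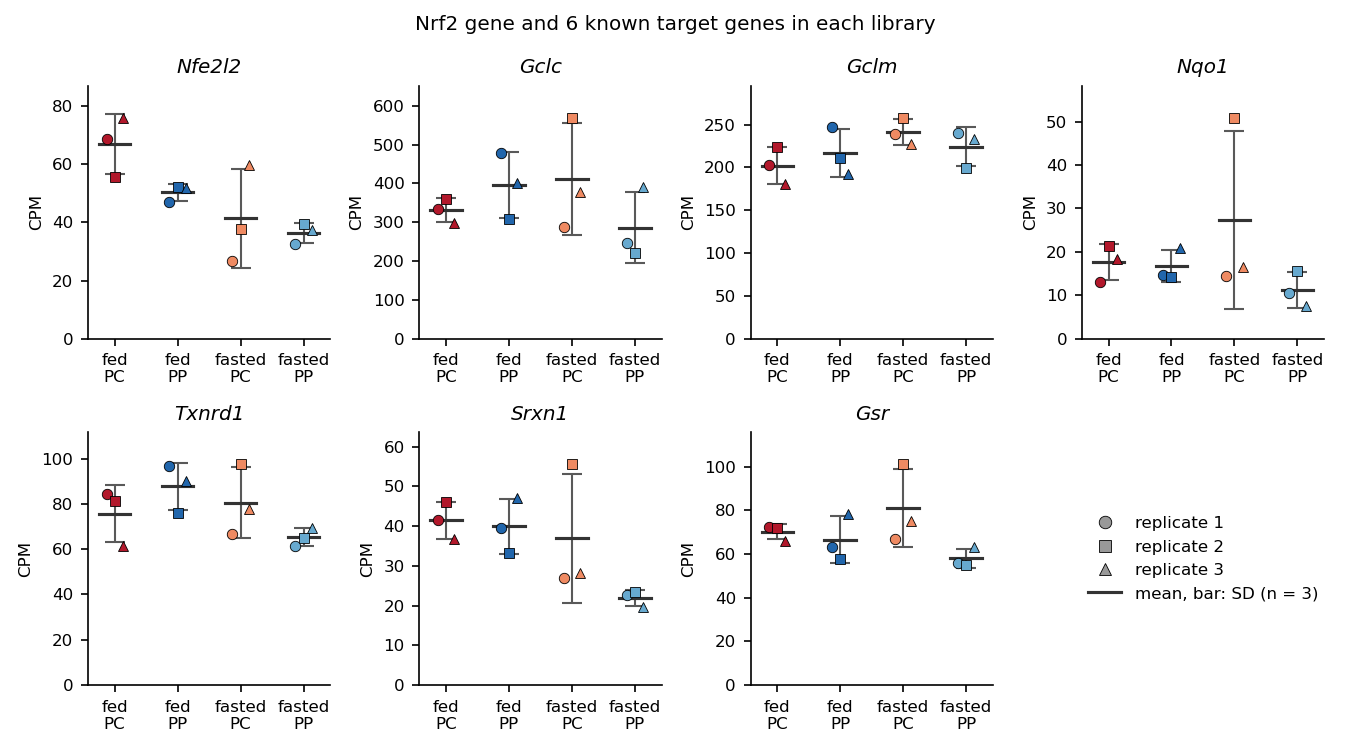
CPM of each member in the 12 libraries, by group, with the mean and SD of 3 libraries; marker shapes are the replicate numbers of the labels. Fasted PC replicate 2 is the highest of all 12 libraries for Gclc, Gclm, Nqo1, Txnrd1, Srxn1 and Gsr, and fasted PP libraries of Srxn1 (19.5 to 23.4 CPM) lie below every other library.

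Nfe2l2, the gene of the regulator itself, stood at 68.8, 55.8 and 76.2 CPM in fed PC libraries (replicates 1, 2 and 3) and at 47.0, 52.3 and 51.8 CPM in fed PP libraries. After fasting it stood at 26.6, 37.7 and 59.9 CPM in PC and at 32.8, 39.5 and 37.2 CPM in PP. The order of the group means was fed PC (66.9 ± 10.3 CPM), fed PP (50.4 ± 2.93), fasted PC (41.4 ± 16.9) and fasted PP (36.5 ± 3.42). The fed groups did not overlap each other, and the PP groups did not overlap each other, but fasted PC spanned the range from below fasted PP to above fed PP. The log2 fold change with fasting was -0.69 ± 0.23 (SE) in PC, with an edgeR adjusted p of 0.051, and -0.46 ± 0.23 in PP (adjusted p = 0.191). Neither was called, though a fit of the PP groups alone called the latter (-0.45, edgeR adjusted p = 0.045).

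The PC value of Nfe2l2 stood close to the threshold and moved across it with small changes. DESeq2 gave -0.70 (adjusted p = 0.018), and edgeR called it with genes of at least 1 CPM in all 3 libraries of a group (-0.70, adjusted p = 0.047). Without fasted PC replicate 3, edgeR gave -1.07 (adjusted p = 0.0023). Without fasted PC replicate 1, the library of low Glul, it gave -0.47 (adjusted p = 0.098), and without fasted PC replicate 2 -0.63 (adjusted p = 0.146). Between the zones, the log2 fold change of PC against PP was 0.41 ± 0.23 in fed mice (edgeR adjusted p = 0.42) and 0.18 ± 0.23 in fasted mice (adjusted p = 0.747). The fasted value turned to -0.19 without fasted PC replicate 3.

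Gclc and Gclm encode the catalytic and the modifier subunit of glutamate-cysteine ligase, the enzyme of the rate-limiting step of glutathione synthesis. Gclc stood at 334.6, 359.6 and 298.7 CPM in fed PC and at 478.8, 307.6 and 401.1 CPM in fed PP libraries. After fasting it stood at 286.6, 569.5 and 378.7 CPM in PC and at 245.9, 220.8 and 390.8 CPM in PP. The groups overlapped in all 4 comparisons, and the ranges of the fasted groups were wider than that of fed PC. Its log2 fold change with fasting was 0.31 ± 0.27 in PC and -0.47 ± 0.27 in PP, and PC against PP was -0.26 ± 0.27 in fed and 0.53 ± 0.27 in fasted mice, with edgeR adjusted p-values from 0.261 to 0.721.

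Gclm was the steadiest member. It stood at 202.5, 223.5 and 180.3 CPM in fed PC, 247.6, 211.1 and 191.8 CPM in fed PP, 238.5, 258.2 and 227.2 CPM in fasted PC and 240.5, 198.9 and 233.6 CPM in fasted PP libraries. Only the PC groups did not overlap, with fasted above fed. That log2 fold change was 0.26 ± 0.13 (edgeR adjusted p = 0.175; 95% interval -0.018 to 0.53). In PP it was 0.049 ± 0.13, with a 95% interval from -0.22 to 0.32, and the zone comparisons gave -0.10 ± 0.13 in fed and 0.10 ± 0.13 in fasted mice (adjusted p = 0.781 and 0.727).

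Per kb of merged exons, Gclc exceeded Gclm in every library. The ratio of Gclc to Gclm was 2.74 ± 0.044 in fed PC, 3.05 ± 0.55 in fed PP, 2.83 ± 0.84 in fasted PC and 2.12 ± 0.59 in fasted PP. The fed PC libraries were almost equal to one another (2.76, 2.69 and 2.77), while the fasted PC libraries ran from 2.01 in replicate 1 to 3.68 in replicate 2. Fasted PP replicates 1, 2 and 3 stood at 1.71, 1.85 and 2.79, and all 4 groups overlapped. The ratio is taken within a library and does not depend on how libraries were scaled, but it rests on annotated exon lengths.

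Nqo1 encodes a cytosolic reductase that takes quinones to hydroquinones, and its mRNA is a widely used marker of Nrf2 activity. It was low and variable here: 13.2, 21.3 and 18.4 CPM in fed PC, 14.8, 14.3 and 20.9 CPM in fed PP, 14.4, 51.0 and 16.4 CPM in fasted PC, and 10.6, 15.6 and 7.43 CPM in fasted PP libraries. Fasted PC replicate 2 was more than 2 times any other library. The groups overlapped in every comparison. Fasted PC against fasted PP gave 1.28 ± 0.47 on the log2 scale (edgeR adjusted p = 0.160; DESeq2 adjusted p = 0.025), and 0.46 when fasted PC replicate 2 was left out (edgeR adjusted p = 0.533). With fasting, the values were 0.63 ± 0.46 in PC, which became -0.19 without that library, and -0.57 ± 0.47 in PP. In fed mice the zones gave 0.083 ± 0.46, with a 95% interval from -0.94 to 1.10. That interval still allows a level nearly 2-fold lower or over 2-fold higher in PC.

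Srxn1 encodes sulfiredoxin, which restores overoxidised peroxiredoxins, and was the only member called. It stood at 41.6, 46.1 and 36.7 CPM in fed PC and at 39.6, 33.2 and 47.1 CPM in fed PP libraries, which overlapped. After fasting it stood at 22.8, 23.4 and 19.5 CPM in PP and at 27.04, 55.6 and 28.2 CPM in PC. All fasted PP libraries lay below all fed PP and all fasted PC libraries. In PP, Srxn1 fell with fasting from 40.0 ± 6.96 to 21.9 ± 2.09 CPM. The fitted log2 change was -0.87 ± 0.25 (edgeR adjusted p = 0.030; DESeq2 adjusted p = 0.0052).

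The Srxn1 call in PP did not survive the loss of most single PP libraries. The edgeR adjusted p was 0.064 and 0.107 with replicate 1 or 3 of fed PP left out. It was 0.078, 0.063 and 0.0933 with replicate 1, 2 or 3 of fasted PP left out, and 0.057 with no filter on low counts. Over all fits that left out 1 library, its log2 fold change ran from -0.97 to -0.73. In PC the change with fasting was -0.17 ± 0.24 (adjusted p = 0.662), and without fasted PC replicate 2 it was -0.59 and called (adjusted p = 0.030). PC against PP in fasted mice gave 0.75 ± 0.25 with an edgeR adjusted p of 0.107. DESeq2 called this value (adjusted p = 0.036), as did edgeR without fasted PC replicate 1 (0.93, adjusted p = 0.039), whereas without fasted PC replicate 2 it was 0.34 (adjusted p = 0.355).

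Txnrd1 encodes the cytosolic thioredoxin reductase, a selenoprotein. It stood at 84.6, 81.2 and 61.3 CPM in fed PC, 96.7, 76.2 and 90.3 CPM in fed PP, 66.5, 97.6 and 77.6 CPM in fasted PC, and 61.5, 65.1 and 69.5 CPM in fasted PP libraries. Fasted PP lay below fed PP without overlap, and the other pairs of groups overlapped. The PP change with fasting was -0.42 ± 0.16 on the log2 scale (edgeR adjusted p = 0.080), and that in PC 0.089 ± 0.16 (adjusted p = 0.725). PC against PP was -0.21 ± 0.16 in fed and 0.30 ± 0.16 in fasted mice (adjusted p = 0.58 and 0.327).

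Gsr encodes glutathione reductase, which returns oxidised glutathione to its reduced form at the cost of NADPH. It stood at 72.4, 72.0 and 66.1 CPM in fed PC, 63.1, 57.9 and 78.5 CPM in fed PP, 66.8, 101.2 and 75.3 CPM in fasted PC, and 56.0, 55.0 and 63.0 CPM in fasted PP libraries. The fasted zones did not overlap, PC above PP, and the groups overlapped in the other comparisons. That difference was 0.48 ± 0.15 on the log2 scale (edgeR adjusted p = 0.088; DESeq2 adjusted p = 0.051). It was called without fasted PC replicate 1 (0.60, adjusted p = 0.032) and was 0.30 without fasted PC replicate 2 (adjusted p = 0.344). With fasting Gsr had 0.21 ± 0.15 in PC and -0.20 ± 0.15 in PP (adjusted p = 0.36 and 0.408).

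**Figure D2:**
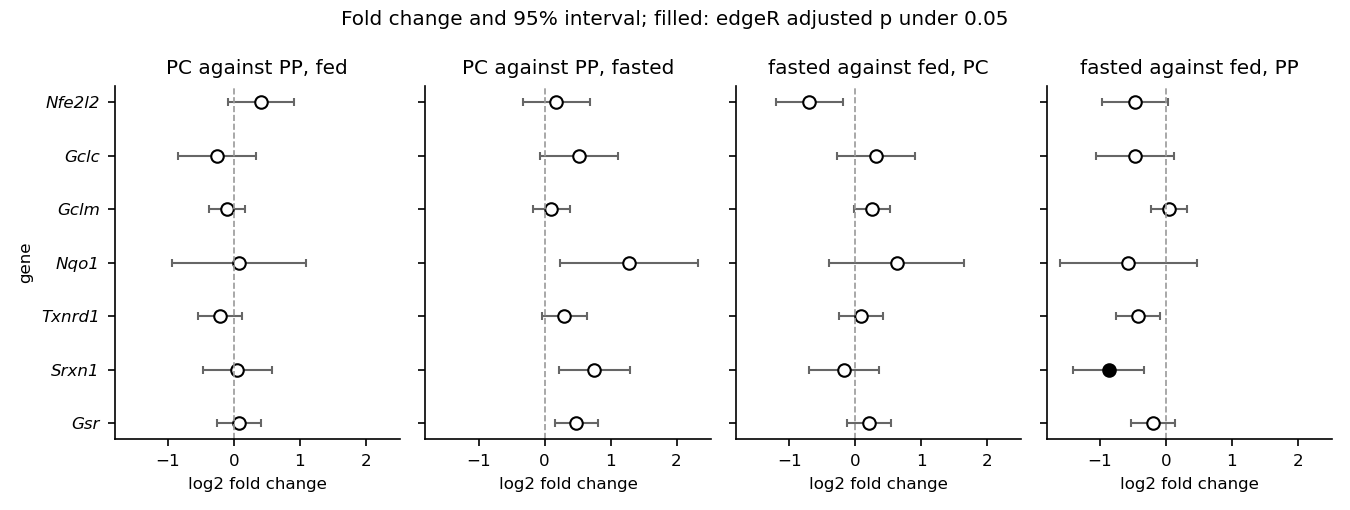
Log2 fold change of the 7 members in each comparison of 2 groups, with the 95% interval from edgeR's quasi-likelihood fit; a filled point has an adjusted p under 0.05. Only Srxn1 in PP hepatocytes (-0.87) is filled, and the 7 points lie above 0 in the comparison of zones in fasted mice.

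Per kb of merged exons, the levels in fed PC libraries ran from Gclc (87.9 ± 8.14 CPM per kb) through Gclm (32.1 ± 3.44), Gsr (25.5 ± 1.28), Nfe2l2 (17.6 ± 2.72), Srxn1 (14.7 ± 1.65) and Nqo1 (11.3 ± 2.65) to Txnrd1 (10.7 ± 1.78). The first 3 were separated from one another and from the rest, while Nfe2l2 overlapped Srxn1, Srxn1 overlapped Nqo1, and Nqo1 overlapped Txnrd1. Gclc was first and Gclm second by mean in each of the 4 groups. In fasted PP the last places were Srxn1 (7.77 ± 0.74 CPM per kb) and Nqo1 (7.21 ± 2.64), which overlapped.

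Seen by comparison, the zones of fed mice held 0 of 7 members called by edgeR, where 4.72% of all genes were called, and 0 had an unadjusted p under 0.05 or a call by DESeq2. The median log2 fold change of the members was 0.055, against -0.014 over all genes. The groups did not overlap for 1 of 7, Nfe2l2, beside 26.0% of all genes. In fasted mice 0 of 7 were called by edgeR, beside 6.40% of all genes. There 3 members (Nqo1, Srxn1 and Gsr) had an unadjusted p under 0.05, as did 19.3% of all genes, and DESeq2 called Nqo1 and Srxn1. The members' median was 0.48, against -0.0014 over all genes, and all 7 log2 fold changes were above 0 with PC higher. The groups did not overlap for 2 of 7, Srxn1 and Gsr, beside 22.0% of all genes. Without fasted PC replicate 2 that median was 0.25 and without fasted PC replicate 1 it was 0.60, with 2 members called, Srxn1 and Gsr.

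With fasting, edgeR called 0 of 7 members in PC, beside 21.4% of all genes. Nfe2l2 was the 1 member with an unadjusted p under 0.05, and the 1 member that DESeq2 called. The median log2 fold change was 0.21 (0.0042 over all genes), with 5 of 7 above 0, but -0.070 with 3 of 7 above 0 without fasted PC replicate 2. The groups did not overlap for 1 of 7, Gclm, with fasted higher, beside 41.7% of all genes (21.5% higher and 20.2% lower). In PP, 1 of 7 was called and lower, Srxn1, where 9.50% of all genes were called lower and 17.9% in either direction. The PP median was -0.46 (0.0049 over all genes), 6 of 7 were below 0, 3 of 7 (Nfe2l2, Txnrd1 and Srxn1) were lower without overlap, beside 34.6% of all genes in either direction and 17.8% lower, and the median stayed between -0.51 and -0.34 whichever library was left out. These 2 comparisons share no library, but each shares its libraries with the comparisons of zones.

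Whether fasting acted differently in the zones was tested as the interaction, the PC change minus the PP change. edgeR called 0 of 7 members and 0% of all genes. Txnrd1 had the only unadjusted p under 0.05 among the members (0.51 ± 0.22), as did 3.85% of all genes, and DESeq2 called 0 members and 11 genes in all. Log2 differences ran from -0.23 ± 0.32 for Nfe2l2 to 1.20 ± 0.66 for Nqo1. Those of the 6 targets were above 0. Their 95% intervals included 0 for every member but Txnrd1 (0.035 to 0.99), so the difference between zones was not resolved with 3 libraries a group. Without fasted PC replicate 2 the largest was Gclc at 0.48 and Txnrd1 had 0.35.

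Within fasted PC, replicate 2 stood apart from replicates 1 and 3 for Nqo1 and Srxn1, whereas Nfe2l2 and Gclc were spread over all 3 libraries. Of all 12 libraries, fasted PC replicate 2 was the highest for 6 of the 7 members, every one but Nfe2l2, and it was the highest for 10.1% of all genes tested. Nfe2l2 in that library, at 37.7 CPM, lay between replicate 1 and replicate 3. The library also held 440.6 CPM of 5 erythroid markers, against 5.10 to 147.3 CPM in the other 11, and their part in the members' values was not tested. Its Glul (3639 CPM) and its total of 16245846 counts were the highest and the lowest of the 12.

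**Figure D3:**
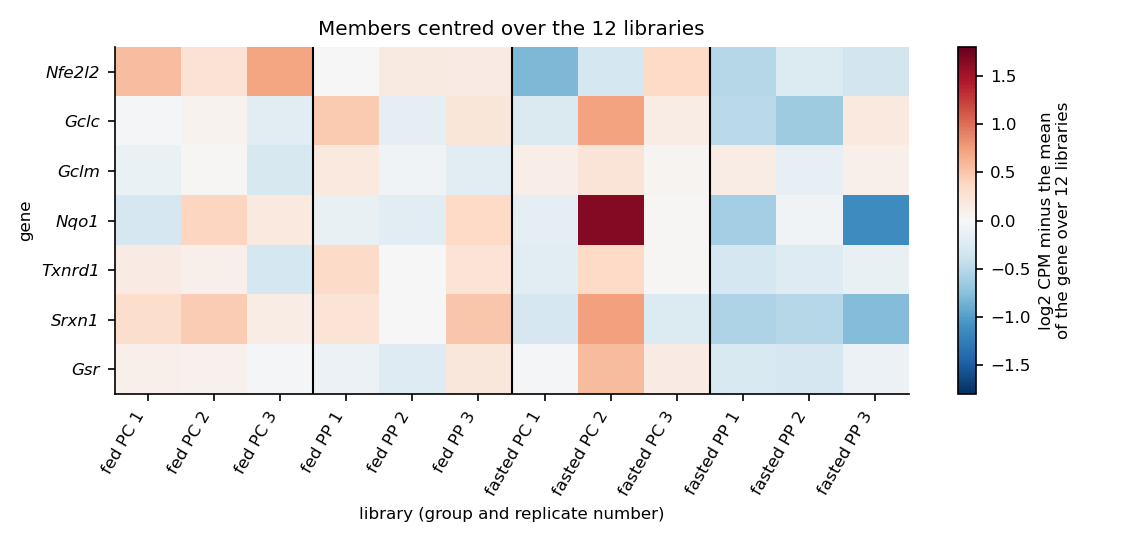
Log2 CPM of each member minus its mean over the 12 libraries (colour), by library. The column of fasted PC replicate 2 is red for all members but Nfe2l2, with Nqo1 darkest (51.0 CPM), and the 3 fasted PP columns are blue in most rows.

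Other known Nrf2 targets were read from a list of 32 genes, of which 30 passed the filter on low counts. Like the lists below, it was chosen with earlier results of these data known. Its shares beside those of all genes are therefore description and no independent test. Slc7a11, the cystine transporter, had at most 13 counts in a library and Gpx2 had 0, so neither was tested. Fasted PC replicate 2 was the highest of the 12 libraries for 17 of the 30. Cbr3, a carbonyl reductase picked after its values were seen, stood at 12.2 CPM there and at 0.62 CPM or less in the other 11 libraries. Gstm1, a glutathione transferase whose pattern was the nearest to that of Nqo1, stood at 3389 CPM there and at 717.4 and 1231 CPM in fasted PC replicates 1 and 3. Reads of Gstm1 and other glutathione transferases can be shared with close paralogs, so their values are uncertain.

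In fasted mice 7 of the 30 targets were higher in PC and 0 lower, beside 3.35% of all genes higher and 3.05% lower, with a list median of 0.56 against -0.0014. Cyp2a5, a cytochrome P450 with a near-identical paralog, was higher by 5.43 ± 0.74, and Abcc4, an efflux pump of conjugates, by 4.37 ± 0.89, with edgeR adjusted p-values of 0.0024 and 0.019. Cyp2a5, Abcc3, Ugt1a6a and Blvrb kept the call whichever library was left out, whereas that of Abcc4 ended without fasted PP replicate 1 or 3. The 7 higher became 12 without fasted PC replicate 1 and 4 without fasted PP replicate 1 or 3, and the 0 lower became 3 without fasted PC replicate 2 and 1 without fasted PP replicate 2. DESeq2 called 11 higher and 1 lower, and a fit of the fasted groups alone 2 higher. In fed mice 3 were higher and 3 lower in PC, beside 2.24% and 2.47% of all genes, with Cyp2a5 at 3.53 ± 0.67 and Abcc4 at 3.59 ± 0.85 among the higher and Gsta2 at -1.48 ± 0.35 and Gsta4 at -0.70 ± 0.17 among the lower (edgeR adjusted p from 0.016 to 0.043). Of these 6, only Blvrb, biliverdin reductase B, kept its call whichever library was left out. The 3 higher became 1 without fed PC replicate 3 or any fed PP replicate, and the 3 lower became 0 or 1 without any of the 6 fed libraries.

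With fasting, 6 of the 30 were lower in PP and 0 higher, beside 9.50% of all genes lower and 8.39% higher. These are 20% of the list, where 17.9% of all genes were called, and the list median was -0.49 against 0.0049. Pgd and G6pdx, which make NADPH in the pentose phosphate pathway, had -2.47 ± 0.44 and -2.09 ± 0.60 (edgeR adjusted p = 0.0043 and 0.038). In PC, 2 were lower and 1 higher, beside 10.2% and 11.1% of all genes. These are 10% of the list, where 21.4% of all genes were called, and the median was 0.21 against 0.0042. The lower were Pgd at -2.16 ± 0.44 and Me1, malic enzyme, another source of NADPH, at -2.15 ± 0.44, and the higher was Abcc3, an efflux pump of glucuronides, at 0.48 ± 0.16 (adjusted p from 0.0062 to 0.046). Pgd and Me1 kept their calls in both zones whichever library was left out, and no other target did. The 6 lower in PP became 2 without fed PP replicate 3 or fasted PP replicate 1 and 3 without fed PC replicate 2, fed PP replicate 2 or fasted PP replicate 2. The 1 higher in PC became 0 without any fed PC or fasted PP replicate, fed PP replicate 1 or 2 or fasted PC replicate 2, and 4 without fasted PC replicate 1, and was also 0 with DESeq2 size factors, whereas the DESeq2 test called 3 higher and 3 lower. The 2 lower in PC became 4 without fed PP replicate 1. Hmox1, haem oxygenase 1, stood at 9.23 ± 4.38, 7.56 ± 3.00, 6.43 ± 2.30 and 4.03 ± 3.00 CPM in fed PC, fed PP, fasted PC and fasted PP, and was called in no comparison.

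**Figure D4:**
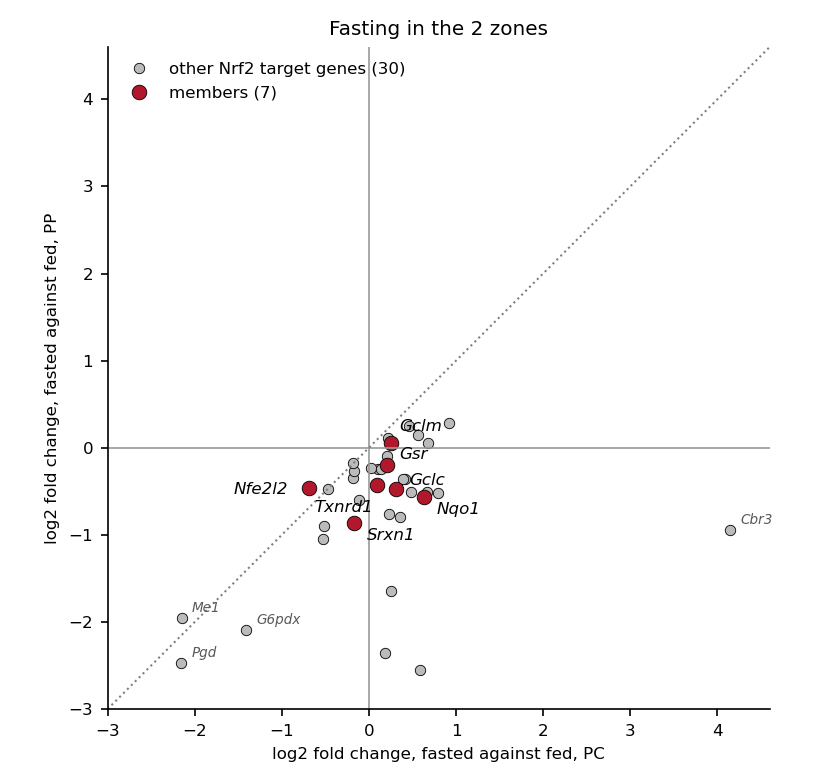
Log2 fold change with fasting in PC (x axis) against PP (y axis) for the 7 members (red) and 30 other Nrf2 target genes (grey); the dotted line marks equal change. Of the members, Gclm alone has a PP value above 0 (0.049), and Me1, Pgd and G6pdx lie far below 0 in both zones, G6pdx without a call in PC.

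Of 11 regulators and partners of Nrf2, edgeR called 4 higher in fasted PC and 4 higher and 1 lower in fasted PP, beside 11.1%, 8.39% and 9.50% of all genes. Bach1, the repressor that competes with Nrf2 for the same elements, rose in PC from 29.8 ± 2.18 to 60.4 ± 7.63 CPM (1.02 ± 0.19, adjusted p = 0.0031) and in PP from 26.8 ± 7.78 to 45.4 ± 8.17 CPM (0.76 ± 0.19, adjusted p = 0.017). The PC groups did not overlap, and neither did the PP groups. Mafk and Maff, small Maf partners, rose in PP by 1.12 ± 0.19 and 2.60 ± 0.41 on the log2 scale (adjusted p = 0.0020 and 0.0018). In PC the same fit gave 0.85 ± 0.19 and 1.30 ± 0.38 (adjusted p = 0.0078 and 0.032). Cul3, the ligase scaffold, was the other gene called higher in both zones. The PC calls of Bach1 and Mafk and the PP calls of Maff, Mafk and Sqstm1 remained whichever library was left out. The PC call of Maff ended without any fed PC replicate or fasted PC replicate 2 or 3, and the PP call of Bach1 without fed PP replicate 2 or 3 or fasted PP replicate 3. The 4 higher became 2 in PC without fed PC replicate 2 or 3 or fasted PC replicate 2, and 2 in PP without fed PP replicate 2.

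Sqstm1, which encodes the autophagy receptor p62 and is both a ligand of Keap1 and an Nrf2 target, fell in PP with fasting by 0.59 on the log2 scale (SE 0.12, edgeR adjusted p = 0.0055). Fed PP libraries held 450.6, 558.5 and 506.6 CPM and fasted PP libraries 366.1, 295.6 and 345.5 CPM. In fasted mice it was higher in PC than in PP by 0.56 ± 0.12 (adjusted p = 0.016), the only 1 of the 11 called between the zones. That call was lost when replicate 2 or 3 of fasted PC, or replicate 2 of fasted PP, was left out. In fed mice 0 of the 11 were called by edgeR, with 1 at an unadjusted p under 0.05 and 1 called by DESeq2, and edgeR called 1 without fasted PP replicate 2 or 3. Keap1 stood at 41.6 ± 5.92, 42.2 ± 2.36, 40.5 ± 4.75 and 34.5 ± 3.29 CPM in fed PC, fed PP, fasted PC and fasted PP and was called in no comparison (edgeR adjusted p from 0.142 to 0.997). For the interaction, edgeR called 0 of the 11 regulators and 0 of the 30 targets, with 2 and 3 at an unadjusted p under 0.05, and DESeq2 called 0 and 1.

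Of 23 genes listed as other antioxidant enzymes, 5 were higher and 1 lower with fasting in PC, beside 11.1% and 10.2% of all genes. In PP 4 were higher and 0 lower, beside 8.39% and 9.50%; these are 17.4% of the list, where 17.9% of all genes were called. Txnip rose by 1.46 ± 0.30 in PC and 1.48 ± 0.30 in PP, and Sesn2, sestrin 2, by 1.29 ± 0.17 and 1.46 ± 0.17 (edgeR adjusted p from 0.00023 to 0.0064). Txnip, a thioredoxin-binding protein, is counted in this list but is not an enzyme. Prdx3, the mitochondrial peroxiredoxin, had -0.39 ± 0.12 in PC (adjusted p = 0.036), which was no longer called when replicate 2 or 3 of fed PC or any library of fasted PC was left out. Between the zones 2 were higher and 0 lower in fed PC, beside 2.24% and 2.47% of all genes, and 3 higher and 0 lower in fasted PC, beside 3.35% and 3.05%. Prdx6, a peroxiredoxin that reduces phospholipid peroxides, was higher in PC by 0.45 ± 0.11 in fed and 0.72 ± 0.12 in fasted mice (adjusted p = 0.040 and 0.0025). Sod1, the cytosolic superoxide dismutase, was higher in fasted PC by 0.67 ± 0.15 and Prdx3 in fed PC by 0.60 ± 0.12 (adjusted p = 0.022 and 0.012). Of these zone calls only that of Prdx6 in fasted mice remained whichever library was left out. The 2 higher in fed PC became 0 with replicate 3 of fed PC left out, and 1 with replicate 1 or 2 of fed PC, replicate 3 of fed PP or replicate 2 of fasted PC left out. The 3 higher in fasted PC became 1 with replicate 2 or 3 of either fasted group left out, and the 0 lower became 1 without fed PP replicate 1 or 2.

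The list of glutathione supply and turnover held 16 genes, 14 of them tested, and shares Gss, Gpx1 and Slc7a11 with the lists above. With fasting 3 were higher and 1 lower in PC, or 28.6% of the 14 beside 21.4% of all genes, and 3 higher and 0 lower in PP, or 21.4% beside 17.9%. Oplah, which returns 5-oxoproline to glutamate, rose by 0.76 ± 0.11 in PC and by 0.60 ± 0.11 in PP (edgeR adjusted p = 0.00060 and 0.0028). Mat1a, which makes S-adenosylmethionine, rose by 0.74 ± 0.16 in PP (adjusted p = 0.0073). Chac1, which degrades glutathione, rose by 2.95 ± 0.61 in PC and 2.47 ± 0.58 in PP (adjusted p = 0.0054 and 0.013), from at most 1.28 CPM in any fed library. Fasted PC replicate 3, at 1.11 CPM, lay inside the range of the fed libraries, and the PP call ended without fed PP replicate 3. Lap3, a leucine aminopeptidase, had -0.40 ± 0.13 in PC (adjusted p = 0.049), and lost the call when any library of fed PC, replicate 2 of fed PP or replicate 2 or 3 of fasted PC was left out. The 0 lower in PP became 1 without fasted PP replicate 1 or 3. Between the zones 1 gene was called in fed and 1 in fasted mice, 7.14% of the 14 each, beside 4.72% and 6.40% of all genes. Gss, glutathione synthetase, was lower in fed PC by -0.61 ± 0.13 (adjusted p = 0.017) and Cbs, of transsulfuration, in fasted PC by -0.62 ± 0.16 (0.033). The call of Gss ended without fed PC replicate 1 or 2 or any fed PP replicate. That of Cbs was lost when replicate 2 of fed PC, any library of fasted PC or replicate 1 or 3 of fasted PP was left out, and 2 genes were called lower in fasted PC without fasted PP replicate 2. For the interaction edgeR called 0 of the 23 enzymes and 0 of these 14 genes, with 2 and 0 at an unadjusted p under 0.05, and DESeq2 called 0 and 0.

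The genes whose pattern was most like that of each member were taken over the 12 libraries, by the smallest root mean square difference of log2 CPM after centring each gene, among 8134 candidates with a mean of at least 5 CPM. For Txnrd1 the nearest was Ftl1, ferritin light chain and itself a known Nrf2 target, at 0.11, followed by Ibtk at 0.13, where the median candidate stood at 0.34. For Srxn1 the nearest were Psmd5 (0.20) and Ugdh (0.22), the latter also in the list of known targets, against a median of 0.52. For Nqo1 they were Gstm1 (0.34) and Daam1 (0.34), against 0.68. Nfe2l2 was nearest to Traf3ip1 (0.17) and Atp11a (0.20), Gclc to Tmtc3 (0.17) and Tmem170 (0.18), Gclm to Sephs1 (0.057) and Aftph (0.073), and Gsr to Nploc4 (0.13) and Tmtc4 (0.13). Among the members, Txnrd1 and Gsr were closest to each other (0.19) and Nfe2l2 and Nqo1 farthest (0.72). A gene of small spread is near other genes of small spread by this measure, and the 12 libraries include 3 of each group.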

How the data were processed

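RNA of 12 libraries in 4 groups of 3 was analysed. The authors deposited estimated counts per Ensembl gene that are not scaled. The submitters' processing notes name kallisto 0.46.0 and mm10, and the transcript annotation, the summing to genes and strand settings are not given in the sources used here. Between 28.0% and 32.8% of a library's values were not whole, and all were rounded, which lowered a library's total by at most 121 counts. Symbols, coordinates and exon lengths came from GENCODE M21 (27645 identifiers matched and 385 did not).

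Genes were kept by filterByExpr, scaled by TMM and fitted with 1 mean per group in edgeR 4.0.16 (R 4.3.3, robust quasi-likelihood, 8 residual degrees of freedom before moderation, common biological coefficient of variation 0.2055). Each SE was taken from the unshrunk log2 fold change and its F statistic (their quotient after a square root of F), and 95% intervals use the moderated degrees of freedom. The spread behind every p-value is that between these libraries. Alternatives were DESeq2 1.42.0, its size factors, other filters, fits of 2 groups, a replicate block and leaving out each library. Fits were tested on simulated data with known fold changes, set in fewer genes than were called in any comparison of 2 groups. Between 2 groups, 5.97% to 19.4% of genes changed 1.5-fold were called, and 52.2% to 59.7% of those changed 2-fold. For the interaction these shares were 0% and 16.4%, so in such data changes of this size were often missed. The share called depends on how many genes change, so these shares may differ from those in the comparisons here.

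The members and lists were chosen with earlier results of these data known. Named genes are the members, Keap1, Bach1, Hmox1 and Slc7a11, up to 2 called genes per list, comparison and direction, and the 2 genes nearest in pattern to each member, leaving out predicted models and pseudogenes. For a few counts, further genes are named that were chosen after their values were seen. Lists of markers of hepatocytes, Kupffer cells, endothelial, stellate, cholangiocyte, lymphoid, granulocytic and erythroid cells were summed. Endothelial markers summed to 4.61 to 20.7 CPM, stellate markers to 0.99 to 14.8 CPM and lymphocyte and granulocyte markers to 0.17 to 6.20 CPM over the libraries.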

Additional observations from a re-analysis of the deposited data

How the results depend on the processing

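Under the alternatives that kept all 12 libraries, no log2 fold change of a member changed sign, and DESeq2 size factors changed no call of a member. DESeq2 called 2 members between the zones of fasted mice and 1 with fasting in PC. No filter on low counts left 0 members called with fasting in PP, the stricter filter gave 1 in PC, and fits of only the groups compared gave 2 in PP, Srxn1 and Nfe2l2. Over all genes, DESeq2 called 929 between the zones of fed mice and 11 for the interaction, for which no filter and the stricter filter each gave 1, and fits of only 2 groups called 376 between the zones of fasted mice. Without division by exon length the mean log2 ratio of Gclc to Gclm was 0.71 in fed PC, 0.85 in fed PP, 0.71 in fasted PC and 0.31 in fasted PP. The cause of these shifts was not tested.

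A replicate block, with the replicate number of the labels as a term, called 1 member with fasting in PC, Nfe2l2 (-0.74, edgeR adjusted p = 0.024), and changed no other call of a member. With it 625, 796, 2696 and 2223 genes were called between the zones of fed mice, between the zones of fasted mice, and with fasting in PC and in PP, and 0 for the interaction. Same-numbered PC and PP libraries within a feeding state were compared for a shared source. The labels name none, and digitonin lyses 1 zone of a liver before the other is collected. Numbers 1, 2 and 3 correlated in their deviations from the group means at 0.269, 0.0237 and 0.151 in fed mice and at 0.193, -0.115 and 0.0939 in fasted mice. Other-number pairs ran from -0.213 to 0.0682 and from -0.27 to 0.217. Over all groups 3 of 18 same-number pairs were over 0.1, all of them among these. The library of the same number gave the highest correlation for 4 of 6 fed and 3 of 6 fasted libraries. What the numbers might share is not given in the labels and was not tested. As not every pair was over 0.1, the numbers were not taken as pairs.

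Some counts in the pathway lists moved by over 1.5 times. DESeq2 called 5 targets higher in fed PC (3 in edgeR), 11 higher and 1 lower in fasted PC (7 and 0), 3 higher with fasting in PC (1) and 1 for the interaction (0). It also called 1 regulator higher in fed PC (0), 2 glutathione genes lower in each zone comparison (1), and 1 further gene lower among antioxidant enzymes in fasted PC and in PP with fasting and among glutathione genes in PP (0 each). No filter gave 1 enzyme higher in fed PC (2), 2 regulators higher in PC with fasting (4), and 0 enzymes and 0 glutathione genes lower there (1 each), and the stricter filter 1 enzyme lower in fasted PC (0). Fits of 2 groups gave 1 regulator, 6 targets and 1 enzyme higher in fed PC (0, 3 and 2), 0 regulators and 2 targets higher and 0 glutathione genes lower in fasted PC (1, 7 and 1), and 2 regulators higher in PP with fasting (4). The replicate block gave 0 targets higher and 5 lower in PC (1 and 2) and 1 glutathione gene lower in PP (0), and DESeq2 size factors 0 targets higher in PC (1).

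Leaving out 1 library at a time gave 0 to 0 members called between the zones of fed mice and for the interaction, 0 to 2 between the zones of fasted mice, and 0 to 1 with fasting in each zone. Counts over all genes ran from 292 (without fed PC replicate 2) to 701 between the zones of fed mice, from 386 (without fasted PC replicate 2) to 1005 between those of fasted mice, from 1593 (without fed PC replicate 3) to 2618 with fasting in PC, from 1405 (without fed PP replicate 2) to 2414 in PP, and from 0 to 2 for the interaction. Values that crossed 0 between the zones of fed mice were those of Nqo1 (-0.061 to 0.30), Srxn1 (-0.043 to 0.20), Gclm (-0.17 to 0.025) and the members' median (-0.061 to 0.20). With fasting in PC they were those of Nqo1 (-0.19 to 0.92), Txnrd1 (-0.070 to 0.19) and the median (-0.070 to 0.24). Gclm with fasting in PP ran from -0.030 to 0.17 and Nfe2l2 between the zones of fasted mice from -0.19 to 0.41. With 3 libraries a group, differences as small as those of Gclm were not resolved.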
